A study of Mus musculus with 20 samples.

Results

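A list of 40 interferon-stimulated genes, transcripts that cells switch on when interferon reaches them, was followed in endothelial cells sorted from mouse ears. Each gene was read from the array probe set (a group of probes summarised to 1 value) whose annotation gave that symbol and no other, and where several qualified the one with the highest mean over all 20 arrays was used. Of 40 genes listed, 36 had such a probe set and 35 of those were bright enough to test, of 14178 genes tested in all. Mx1 was under the filter, with group means of 2.26 to 3.05 on the log2 scale. Oas1a, Dtx3l and Gbp2 were carried only by probe sets shared with another gene, so no value is given for them, and Ifi44 had no entry in the annotation used.

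The cells were CD31+CD45-Ter119- endothelium from collagenase-digested ears of mice with contact hypersensitivity to DNFB, a hapten that elicits an allergic skin reaction in sensitised animals. Groups were 6 control vehicle, 6 control DNFB, 4 NICD1-EC-OE vehicle and 4 NICD1-EC-OE DNFB arrays. Per the labels, mice were given tamoxifen on 5 consecutive days and sensitised to DNFB through the skin; a single ear challenge followed on day 5, and tissue was harvested 24 hours after it; the labels do not say how the vehicle animals were sensitised. NICD1-EC-OE mice express a constitutively active Notch1 intracellular domain in endothelium, and the control genotype is given only as control. The genotype label names a Pdgfb-CreERT2 driver with R26-NICD, whereas the growth protocol names CDH5-iCre, so the driver is uncertain. Strain, age and whether each array is a separate animal are not given, so the p-values measure the spread between arrays, which may in part be technical.

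Interferons signal through surface receptors and the kinases Jak1, Jak2 and Tyk2 to STAT proteins. Type I and type III interferons act through a complex with Stat2 and Irf9 that binds the interferon-stimulated response element (ISRE), while interferon gamma acts mainly at gamma-activated (GAS) sites. Endothelium responds to both classes, and in contact hypersensitivity interferon gamma from T cells is a well known source of the response. The products sense foreign nucleic acid, block viral replication, attach the ubiquitin-like protein Isg15 to other proteins, attack pathogen vacuoles, or feed back on the pathway.

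The defining endothelial markers were bright in all groups, with Pecam1 averaging 11.48 to 11.72 and Cdh5 11.77 to 12.01. Over 14 endothelial markers the mean went from 10.33 ± 0.08 (SD, n = 6) to 9.70 ± 0.17 with DNFB in control mice and from 10.25 ± 0.06 (n = 4) to 9.89 ± 0.10 in NICD1-EC-OE mice. Genotype and sex cannot be told apart, and the level of whole arrays went with genotype too. Array medians were 3.87 to 3.98 in control and 3.52 to 3.62 in NICD1-EC-OE arrays, and the lowest value per array was 0.412 to 0.590 against 1.18 to 1.30. Xist was low in all control arrays (2.27 to 3.16) and high in all NICD1-EC-OE arrays (8.47 to 9.07), with Eif2s3y the reverse (6.08 to 7.12 against 2.11 to 2.79). Differences between genotypes are therefore given as deposited and with each array centred on its median, while DNFB differences lie within a genotype. Notch1 averaged 9.82 ± 0.12 (SD, n = 6) in control vehicle, 9.76 ± 0.14 in control DNFB, 9.71 ± 0.16 in NICD1-EC-OE vehicle and 9.76 ± 0.10 in NICD1-EC-OE DNFB arrays, and its probes do not check the transgene, since the part of the transcript they cover is not given. Between genotypes in DNFB ears it differed by 0.37 after centring (limma adjusted p 0.00688). With quantile normalization and cyclic loess it differed by 0.035 and 0.028 and did not pass (limma adjusted p 0.847 and 0.877). The labels of NICD1-EC-OE vehicle replicate 4 conflict, with vehicle in the title and DNFB in the description. The title was followed, and the main counts that this array enters are also given without it. On the first principal component of the tested probe sets, the main axis of variation, this array lay at -44.3. The other NICD1-EC-OE vehicle arrays lay at -46.9 to -42.3 and the NICD1-EC-OE DNFB arrays at 32.0 to 34.7, so by its values it lay with the vehicle arrays.

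Promoter sequence from RefSeq (GRCm38.p6) was searched for the ISRE and GAS elements. The ISRE core was searched as GAAANNGAAA and the GAS site as TTCNNNGAA, on both strands, with overlapping matches counted and a position that fits both counted for each. Windows ran from 250 bases before to 50 after a transcription start. Of 30 listed genes with a window, 15 held an ISRE core and 7 a GAS match. By window, 15 of 35 (42.9%) held an ISRE core against 3.44% of all 32851 windows in the table, and 7 of 35 (20%) held a GAS match against 8.3%. A match is a description of the letters, not a bound site, and a window without one says nothing about the factor.

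From these windows, 8 stretches of 160 bases just before the start are printed below, chosen among genes with a match that carry contrasts described later. Isg15 and Ifit1 differed between genotypes, and Rsad2 and Slfn5 fell with DNFB. Irgm1 rose in both genotypes and Igtp passed as higher in control mice only. Irf8 and Irf1 hold a GAS match and no ISRE core in their windows. Oasl1, Cmpk2, Trim25 and Irf7 also carry contrasts, but their windows hold no match and are not printed. Capitals mark the ISRE matches of the first 6 stretches and the GAS matches of Irf8 and Irf1; another GAS match of Irf8, at -171, lies outside its stretch, and the GAS match of Igtp at -45 is left in lower case. Coordinates are in order chr4:156200819-156200978 (minus strand), chr19:34640729-34640888 (plus), chr12:26456453-26456612 (minus), chr11:82951942-82952101 (plus), chr11:58199396-58199555 (plus), chr11:48871421-48871580 (minus), chr8:120736198-120736357 (plus) and chr11:53769854-53770013 (plus).
Isg15: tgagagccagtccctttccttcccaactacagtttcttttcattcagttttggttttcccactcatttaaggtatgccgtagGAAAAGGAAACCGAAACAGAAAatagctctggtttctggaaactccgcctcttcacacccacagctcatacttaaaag
Ifit1: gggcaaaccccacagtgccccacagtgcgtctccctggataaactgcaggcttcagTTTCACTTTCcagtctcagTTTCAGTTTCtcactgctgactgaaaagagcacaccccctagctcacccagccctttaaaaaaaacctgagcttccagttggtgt
Rsad2: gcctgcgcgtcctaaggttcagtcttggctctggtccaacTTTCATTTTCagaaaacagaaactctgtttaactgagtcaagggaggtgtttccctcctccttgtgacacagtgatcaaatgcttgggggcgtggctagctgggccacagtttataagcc
Slfn5: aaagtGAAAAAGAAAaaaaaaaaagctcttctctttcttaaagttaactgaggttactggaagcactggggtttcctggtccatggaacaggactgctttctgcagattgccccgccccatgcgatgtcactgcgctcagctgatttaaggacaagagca
Igtp: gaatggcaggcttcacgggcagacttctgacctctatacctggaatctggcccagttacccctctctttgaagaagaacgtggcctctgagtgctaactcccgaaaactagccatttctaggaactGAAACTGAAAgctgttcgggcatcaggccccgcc
Irgm1: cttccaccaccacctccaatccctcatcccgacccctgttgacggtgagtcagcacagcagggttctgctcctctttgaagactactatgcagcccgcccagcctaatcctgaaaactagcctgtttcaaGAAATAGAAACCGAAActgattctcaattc
Irf8: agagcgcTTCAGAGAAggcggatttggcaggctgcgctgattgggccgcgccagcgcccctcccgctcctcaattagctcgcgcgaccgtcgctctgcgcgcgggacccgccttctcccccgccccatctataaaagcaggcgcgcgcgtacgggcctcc
Irf1: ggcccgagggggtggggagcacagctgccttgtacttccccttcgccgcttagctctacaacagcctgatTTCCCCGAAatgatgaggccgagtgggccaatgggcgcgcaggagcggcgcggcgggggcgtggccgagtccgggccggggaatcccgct
In Isg15 the 3 ISRE matches overlapped in 1 run that began at -78 relative to the start. Irgm1 likewise had 2 overlapping matches from -30, Ifit1 had 2 separate ones at -104 and -85, Rsad2 and Slfn5 had 1 each at -120 and -155, and Igtp had 1 at -34. The same element thus stood before genes that rose and before genes that fell: of members with a window, 4 of 10 that rose with DNFB in NICD1-EC-OE mice and 2 of 4 that fell held an ISRE core. In control mice the counts were 3 of 6 that rose and 2 of 5 that fell. Of members with a window that did not pass the threshold, 7 of 12 held an ISRE core in NICD1-EC-OE mice and 8 of 15 in control mice.

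In control mice the challenge moved these genes in both directions. The largest rises were Zbp1, a sensor of Z-form nucleic acid that can trigger cell death, Oasl1, an OAS-like protein that restrains Irf7 translation, and Irf8, an interferon-gamma-induced transcription factor of myeloid cells. Slfn5, Cmpk2, Rsad2, Ifit2 and Trim25 fell. Of 35 members, 8 rose (22.9%; 23.7% of all probe sets tested rose) and 5 fell (14.3%; 23.6% of all fell) at an adjusted p under 0.05 in limma, so neither share was above the background. With quantile values 5 rose and 5 fell (23.5% and 23.6% of all probe sets), and with cyclic loess values likewise 5 and 5 (23.8% and 23.5%). Their median difference was 0.095 against -0.0012 over all probe sets, and 26 of 35 were positive. DNFB and vehicle arrays did not overlap in 2 risers (13.6% of all probe sets) and in 5 fallers (13.2%).

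Among the sensors, Zbp1 was 4.99, 6.42 and 6.90 in control vehicle arrays (lowest, median, highest) and 6.54, 8.19 and 8.68 in control DNFB arrays. The groups overlapped through a single low DNFB array, and the mean rose by 1.83 ± 0.36 (SE, n = 6 and 6; limma adjusted p 0.000263). The RNA helicases Ifih1 (MDA5), Ddx58 (RIG-I) and Dhx58 (LGP2) differed by 0.19, 0.09 and 0.45 and did not pass (adjusted p 0.235, 0.484 and 0.143).

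Of the 12 antiviral effectors tested, 2 rose and 3 fell. Oasl1 ran at 4.31, 4.48 and 5.14 in vehicle and 5.73, 6.27 and 7.20 in DNFB arrays, with no overlap, and rose by 1.66 ± 0.22 (adjusted p 3.25e-06). Oas3, a synthetase of the RNase L activator, rose by 0.61 ± 0.21 (adjusted p 0.0232), but lay close to the array median: it was above it on 0 of 6 vehicle and 4 of 6 DNFB arrays, and was kept for testing only through DNFB arrays. Rsad2 (viperin, which makes a chain-terminating nucleotide) was 6.80, 7.30 and 7.41 in vehicle and 5.47, 6.20 and 6.77 in DNFB arrays. It fell by 1.06 ± 0.18 (adjusted p 4.15e-05) with no overlap. Its neighbour Cmpk2, a mitochondrial nucleotide kinase whose start lies 12.8 kb away on chromosome 12 and on the other strand, ran at 8.77, 9.01 and 9.33 in vehicle and 6.76, 8.01 and 8.65 in DNFB arrays and fell by 1.12 ± 0.20 (adjusted p 0.000121). Ifit2, which binds viral RNA, ran at 6.51, 6.66 and 6.97 in vehicle and 5.21, 5.67 and 6.43 in DNFB arrays and fell by 0.90 ± 0.18 (adjusted p 0.000378). Ifit1 and Ifit3, in the same cluster on chromosome 19, differed by 0.01 each and did not pass (adjusted p 0.982 and 0.957). Bst2 (tetherin), Mx2, Oas2, Oasl2 and Samd9l also stayed short of the threshold, with differences of -0.33 to 0.48.

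Among the 6 genes of the Isg15 system and related enzymes, Trim25, the ubiquitin ligase that activates RIG-I, was 8.40, 8.56 and 8.83 in vehicle and 7.58, 7.88 and 8.07 in DNFB arrays. It fell by 0.74 ± 0.11 (adjusted p 1.45e-05), with no overlap. Isg15 itself differed by 0.32 ± 0.21 and Usp18, the protease that removes Isg15 and blocks the type I receptor, by 0.35 ± 0.23 (adjusted p 0.231 and 0.228). The ligase Herc6 and the ADP-ribosyltransferases Parp9 and Parp14 differed by -0.04, 0.08 and 0.11 and did not pass either.

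Of the 5 transcription factors, Irf8 alone passed in control mice. It was 6.30, 6.91 and 7.06 in vehicle and 7.80, 8.54 and 8.83 in DNFB arrays, with no overlap, and rose by 1.64 ± 0.15 (adjusted p 2.67e-08). A second Irf8 probe set gave 0.41 ± 0.19 (adjusted p 0.0833), in the same direction. Irf1, Irf7, Irf9 and Stat2, which carry the early and late transcriptional response, differed by 0.09, -0.16, 0.12 and 0.02 and did not pass.

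Of the 4 interferon-inducible GTPases, Irgm1 and Igtp, both resistance GTPases of pathogen vacuoles, rose. Irgm1 ran at 7.09, 7.97 and 8.25 in vehicle and 8.19, 8.71 and 8.84 in DNFB arrays, overlapping at the edge, and rose by 0.74 ± 0.17 (adjusted p 0.00115). Igtp rose by 0.78 ± 0.29 (adjusted p 0.0349), where 1 vehicle array at 7.39 widened its range. Gbp3 and Iigp1 differed by 0.05 and 0.07 and did not pass.

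In the rest, Slfn5, a Schlafen-family gene, was 8.73, 8.86 and 9.002 in vehicle and 7.34, 7.48 and 7.76 in DNFB arrays. The groups lay almost 1 log2 unit apart at their nearest arrays, and Slfn5 fell by 1.34 ± 0.09 (adjusted p 3.17e-10). Rtp4, a receptor transporter, rose by 0.41 ± 0.16 (adjusted p 0.0472). Ifi35 rose by 0.33 ± 0.12 (adjusted p 0.0279) on the probe set used, while its other probe set differed by -0.40 ± 0.18 (adjusted p 0.0711), so the direction of Ifi35 depends on the probe set. Xaf1, a pro-apoptotic factor, differed by 0.25 ± 0.17 and did not pass.

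**Figure D1:**
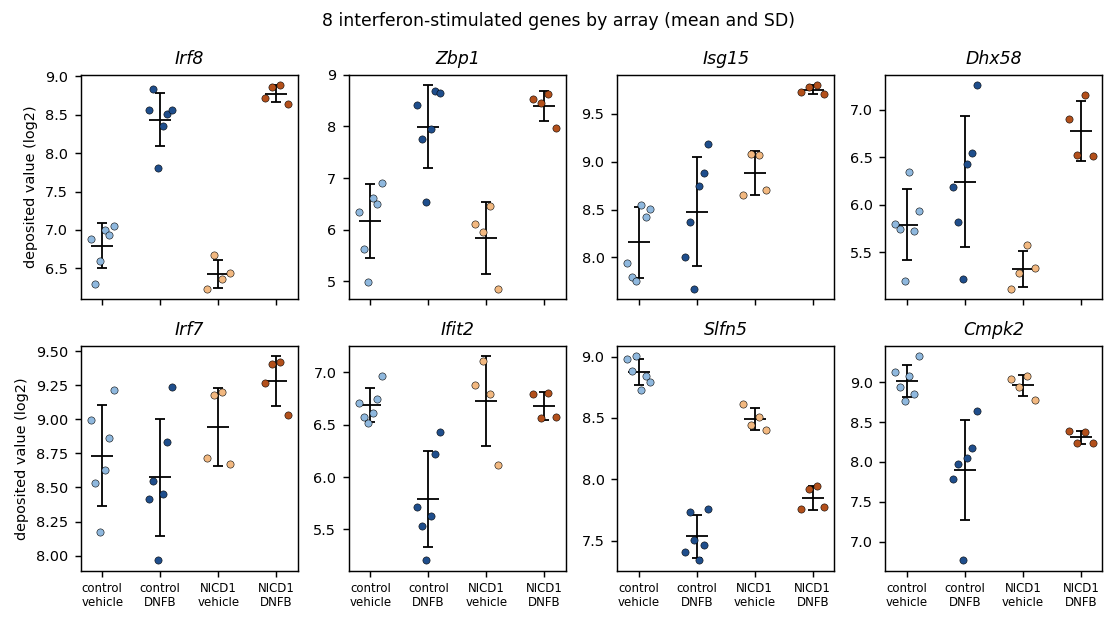
Deposited log2 values (vertical axis) of Irf8, Zbp1, Isg15, Dhx58, Irf7, Ifit2, Slfn5 and Cmpk2 in each array of the 4 groups, 1 point per array, with bars for the mean and SD. Irf8 does not overlap between vehicle and DNFB in either genotype, the 4 NICD1-EC-OE DNFB arrays of Isg15 lie between 9.71 and 9.80, above the arrays of all other groups, and Slfn5 and Cmpk2 are lower in DNFB arrays of both genotypes.

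The number of risers in control mice turned on single arrays. It was 14 without control DNFB replicate 3, 4 without control DNFB replicate 5, and 5 each without control DNFB replicate 6, control vehicle replicate 3 or control vehicle replicate 5. The share of all probe sets that rose in these fits is not given. Of the 13 calls, 9, on Zbp1, Oasl1, Rsad2, Cmpk2, Ifit2, Trim25, Irf8, Irgm1 and Slfn5, stood in each of the 12 fits that left out 1 array. Oas3 lost its call without replicate 5 of the control vehicle or of the control DNFB arrays (adjusted p 0.0526 and 0.0659). Ifi35 lost its call in 5, Igtp in 6 and Rtp4 in 8 of those fits, with adjusted p up to 0.0732, 0.0908 and 0.115.

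In NICD1-EC-OE mice the same challenge was followed by higher values of more members. Of 35, 16 rose (45.7%; 20% of all probe sets rose) and 4 fell (11.4%; 18.1% of all fell). The median difference was 0.39 against 0.007 over all probe sets. In 19 members every DNFB array lay above every vehicle array (19.9% of all probe sets) and in 3 every one lay below (17.4%). These groups hold 4 arrays each, so non-overlap is reached more easily than with 6 and 6. Without NICD1-EC-OE vehicle replicate 4, the array with conflicting labels, 10 members rose (28.6%; 17.9% of all) and 3 fell (8.57%; 16.1% of all), and non-overlap was again seen in 19 and 3 (21.5% and 19.3% of all). Without NICD1-EC-OE vehicle replicate 1, likewise 10 rose, and there the share of all probe sets is not given.

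Of the 4 sensors, 3 rose. Zbp1 was 6.11, 5.95, 6.46 and 4.86 in the vehicle arrays (replicates 1 to 4) and 8.53, 8.46, 8.62 and 7.97 in the DNFB arrays. With no overlap, it rose by 2.55 ± 0.44 (SE, n = 4 and 4; adjusted p 0.000101). Dhx58, which tunes RIG-I and MDA5 signalling, went from 5.12, 5.28, 5.58 and 5.34 to 6.91, 6.52, 7.15 and 6.51 and rose by 1.44 ± 0.30 (adjusted p 0.000728). Ddx58 rose by 0.37 ± 0.12 (adjusted p 0.0195). Ifih1 differed by 0.35 ± 0.15 and did not pass (adjusted p 0.0797), although its DNFB arrays (8.59 to 8.73) all lay above its vehicle arrays (8.11 to 8.45).

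Among the 12 effectors, 4 rose (33.3%, against 20% of all probe sets) and 2 fell (16.7%, against 18.1%). Without NICD1-EC-OE vehicle replicate 4, 1 rose and 1 fell (8.33% each, against 17.9% and 16.1% of all probe sets). Oasl1 was 4.58, 4.83, 5.47 and 4.30 in vehicle and 6.41, 6.38, 6.65 and 6.23 in DNFB arrays and rose by 1.62 ± 0.27 (adjusted p 7.3e-05), a size close to that in control mice. Oasl2, Oas3 and Oas2 rose by 0.78 ± 0.29, 0.73 ± 0.26 and 0.71 ± 0.27 (adjusted p 0.0413, 0.0333 and 0.0407); Oas3 was above the array median on 0 of 4 vehicle and 3 of 4 DNFB arrays. Rsad2 went from 6.84, 6.94, 7.15 and 6.83 to 5.69, 6.02, 6.16 and 6.16 and fell by 0.93 ± 0.21 (adjusted p 0.00169). Cmpk2 went from 9.04, 8.94, 9.08 and 8.78 to 8.39, 8.24, 8.37 and 8.23 and fell by 0.65 ± 0.25 (adjusted p 0.0432), again beside Rsad2 and in the same direction. Ifit2 differed by -0.04 ± 0.22 (adjusted p 0.91), with values of 6.88, 7.11, 6.79 and 6.11 in vehicle and 6.80, 6.56, 6.80 and 6.57 in DNFB arrays, so that the groups overlapped widely. Ifit1, Ifit3, Mx2, Bst2 and Samd9l did not pass (differences of -0.54 to 0.39).

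Isg15 was 8.65, 9.07, 9.07 and 8.71 in vehicle and 9.73, 9.77, 9.80 and 9.71 in DNFB arrays. It rose by 0.88 ± 0.26 (adjusted p 0.0108), and the DNFB arrays spanned less than 0.1. Its protease Usp18 went from 6.90, 7.26, 7.12 and 6.15 to 7.93, 7.94, 7.84 and 7.51 and rose by 0.95 ± 0.29 (adjusted p 0.0119). Parp14 rose by 0.39 ± 0.15 (adjusted p 0.0386). Trim25 fell by 0.46 ± 0.14 (adjusted p 0.0109), with its highest DNFB array at 8.17 inside the vehicle range of 8.12 to 8.58. Herc6 and Parp9 differed by 0.26 and 0.25 and did not pass.

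Irf8 was 6.23, 6.67, 6.36 and 6.43 in vehicle and 8.71, 8.86, 8.89 and 8.65 in DNFB arrays. It rose by 2.35 ± 0.19 (adjusted p 9.79e-09), and its second probe set rose by 1.11 ± 0.24 (adjusted p 0.000786). Irf1, the immediate interferon-gamma-induced factor, went from 8.17, 8.50, 8.65 and 8.67 to 8.77, 9.06, 8.71 and 9.12 and rose by 0.42 ± 0.13 (adjusted p 0.0127). Irf7, Irf9 and Stat2 differed by 0.34, 0.18 and -0.06 and did not pass. Irgm1 rose by 1.06 ± 0.21 (adjusted p 0.000344) and Iigp1 by 0.44 ± 0.15 (adjusted p 0.0266). Igtp and Gbp3 did not pass (0.79 ± 0.36 and 0.42 ± 0.27), although neither overlapped between the groups.

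Xaf1 went from 7.56, 7.81, 7.53 and 7.19 to 8.22, 8.38, 8.28 and 8.19 and rose by 0.75 ± 0.21 (adjusted p 0.00731). Ifi35 rose by 0.71 ± 0.14 (adjusted p 0.000538) on the probe set used and differed by -0.28 ± 0.22 (adjusted p 0.348) on the other. Slfn5 was 8.61, 8.44, 8.51 and 8.40 in vehicle and 7.75, 7.92, 7.95 and 7.77 in DNFB arrays and fell by 0.64 ± 0.11 (adjusted p 8.31e-05), with no overlap. Rtp4 differed by 0.48 ± 0.20 and did not pass (adjusted p 0.0626).

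Of the 20 calls in NICD1-EC-OE mice, 11, on Dhx58, Zbp1, Oasl1, Rsad2, Isg15, Trim25, Irf8, Irgm1, Xaf1, Ifi35 and Slfn5, stood in each of the 8 fits that left out 1 array. Ddx58 and Irf1 lost theirs without NICD1-EC-OE vehicle replicate 1 (adjusted p 0.0571 and 0.0589) and Usp18 without NICD1-EC-OE vehicle replicate 4 (adjusted p 0.0581). Iigp1 lost its call in 3 fits, Oas3 in 4, Oasl2 in 5, Oas2 in 6, Parp14 in 7 and Cmpk2 in all 8, with adjusted p up to 0.0944, 0.116, 0.139, 0.137, 0.0997 and 0.0924.

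**Figure D2:**
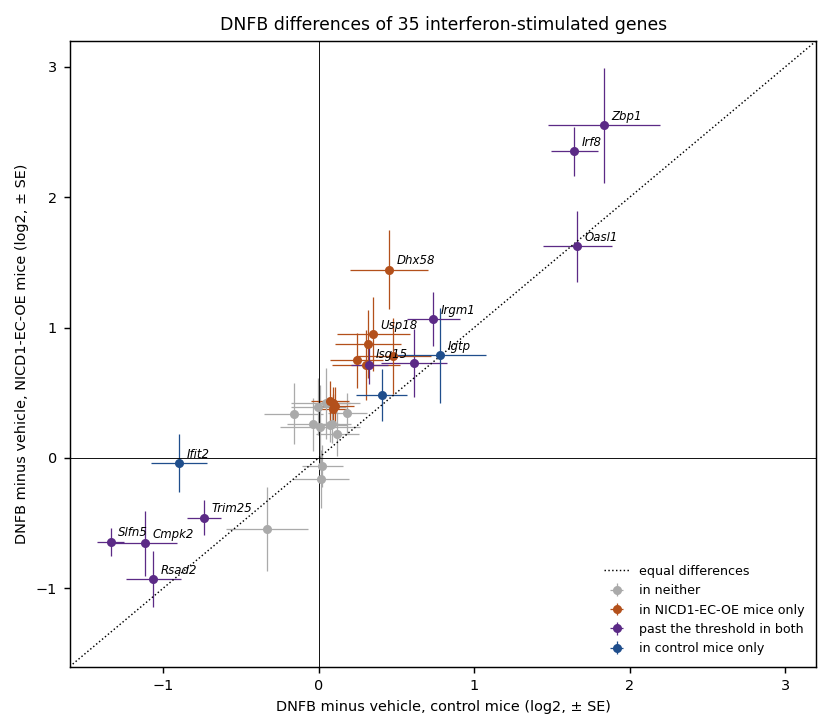
Difference between DNFB and vehicle ears on the log2 scale in control mice (horizontal axis) and NICD1-EC-OE mice (vertical axis) for 35 interferon-stimulated genes, with bars for ± 1 SE, colours for which comparisons passed the threshold and a dotted line of equal differences. Zbp1 and Irf8 lie at the upper right, Slfn5, Cmpk2 and Rsad2 at the lower left, and 31 of 35 points lie above the dotted line.

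Set side by side, 6 members rose in both genotypes (Zbp1, Oas3, Oasl1, Irf8, Irgm1 and Ifi35, of which Oas3 was testable only through its DNFB arrays) and 4 fell in both (Rsad2, Cmpk2, Trim25 and Slfn5). A further 10 passed as higher in NICD1-EC-OE mice and not in control mice (Ddx58, Dhx58, Oas2, Oasl2, Isg15, Usp18, Parp14, Irf1, Iigp1 and Xaf1), 2 in control mice and not in NICD1-EC-OE mice (Igtp and Rtp4), and Ifit2 fell in control mice alone. In 12 neither comparison passed, no member passed in opposite directions, and the sign was shared by 30 of 35. Without NICD1-EC-OE vehicle replicate 4, the array with conflicting labels, Oas3, Oas2, Oasl2, Usp18, Parp14 and Iigp1 no longer passed as higher in NICD1-EC-OE mice. Cmpk2 no longer passed as lower there. The split between shared calls and calls in NICD1-EC-OE mice only thus rests in part on this array.

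The difference between the DNFB effects was tested directly, and passing in 1 genotype only did not amount to a tested difference for any member. The effect was more positive in NICD1-EC-OE mice for 31 of 35 members (88.6%, against 52.3% of all probe sets). The median difference was 0.30 against 0.017 over all probe sets. For members that fell in control mice, such as Slfn5 and Ifit2, more positive means a smaller fall. In limma 0 of 35 passed the adjusted threshold (0.00672% of all probe sets passed in each direction), and 4 had an unadjusted p under 0.05 (11.4%; 10.6% of all). Those were Slfn5 (0.69 ± 0.14, adjusted p 0.0839), Dhx58 (0.99 ± 0.39, adjusted p 0.361), Ifit2 (0.86 ± 0.29, adjusted p 0.292) and Irf8 (0.71 ± 0.24, adjusted p 0.293). Without control DNFB replicate 6, Slfn5 passed (adjusted p 0.0324). Without NICD1-EC-OE vehicle replicate 4, the effect was more positive in NICD1-EC-OE mice for 29 of 35 members (82.9%, against 52.8% of all). The median was then 0.26, 0 passed in limma, and 5 had an unadjusted p under 0.05 (14.3%, against 9.18% of all). For Oasl1 and Igtp the effects in the genotypes differed by -0.04 ± 0.35 and 0.01 ± 0.47, intervals too wide to show that they were alike. Sex goes with genotype in this test too.

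In DNFB ears, members stood higher in NICD1-EC-OE than in control mice relative to the other genes on the arrays. As deposited, 8 of 35 were higher (22.9%; 5.45% of all probe sets) and 2 lower (5.71%; 35.1% of all), with a median difference of 0.27 against -0.27 over all probe sets. After centring, 20 were higher (57.1%; 20.7% of all) and 0 lower (8.12% of all), with medians of 0.64 against 0.099. Quantile normalization gave 8 higher and 0 lower (11.9% and 11.9% of all), and cyclic loess 11 higher and 0 lower (12.4% and 11.4% of all). In 5 members every NICD1-EC-OE DNFB array lay above every control DNFB array as deposited (3.28% of all probe sets), namely Ifit2, Bst2, Isg15, Iigp1 and Rtp4, and in 0 every one lay below (21.7%).

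Isg15 was 7.67, 8.56 and 9.19 in control DNFB arrays (lowest, median, highest) and 9.71 to 9.80 in the 4 NICD1-EC-OE DNFB arrays. The difference was 1.27 ± 0.24 as deposited (adjusted p 0.000413) and 1.65 after centring. Bst2, which tethers budding virions at the membrane, was 9.71, 10.55 and 10.92 against 11.31, 11.41, 11.39 and 11.19, and differed by 0.89 ± 0.20 (adjusted p 0.0018; 1.26 after centring). Ifit2 was 5.21, 5.67 and 6.43 against 6.80, 6.56, 6.80 and 6.57 and differed by 0.89 ± 0.20 (adjusted p 0.00208; 1.27 after centring). In all 3 the groups did not overlap.

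Ifit1 differed by 0.84 ± 0.29 (adjusted p 0.0267; 1.21 after centring) and Irf7, the amplifier of type I interferon production, by 0.71 ± 0.21 (adjusted p 0.0127; 1.08). Ifih1 differed by 0.40 ± 0.14 (adjusted p 0.0264; 0.78) and Slfn5 by 0.31 ± 0.10 (adjusted p 0.0171; 0.69). Together with Isg15, Bst2 and Ifit2 these 7 were higher under each of the 4 scalings tried. Iigp1 was higher as deposited (0.38 ± 0.14, adjusted p 0.0332) and after centring (0.75), and did not pass with quantile (adjusted p 0.0572) or loess (adjusted p 0.0635) values. Mx2 and Irf1 were lower as deposited (-0.86 ± 0.29 and -0.30 ± 0.12, adjusted p 0.0264 and 0.042), but after centring Mx2 differed by -0.48 and did not pass (adjusted p 0.229) and Irf1 turned to 0.067 (adjusted p 0.703).

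**Figure D3:**
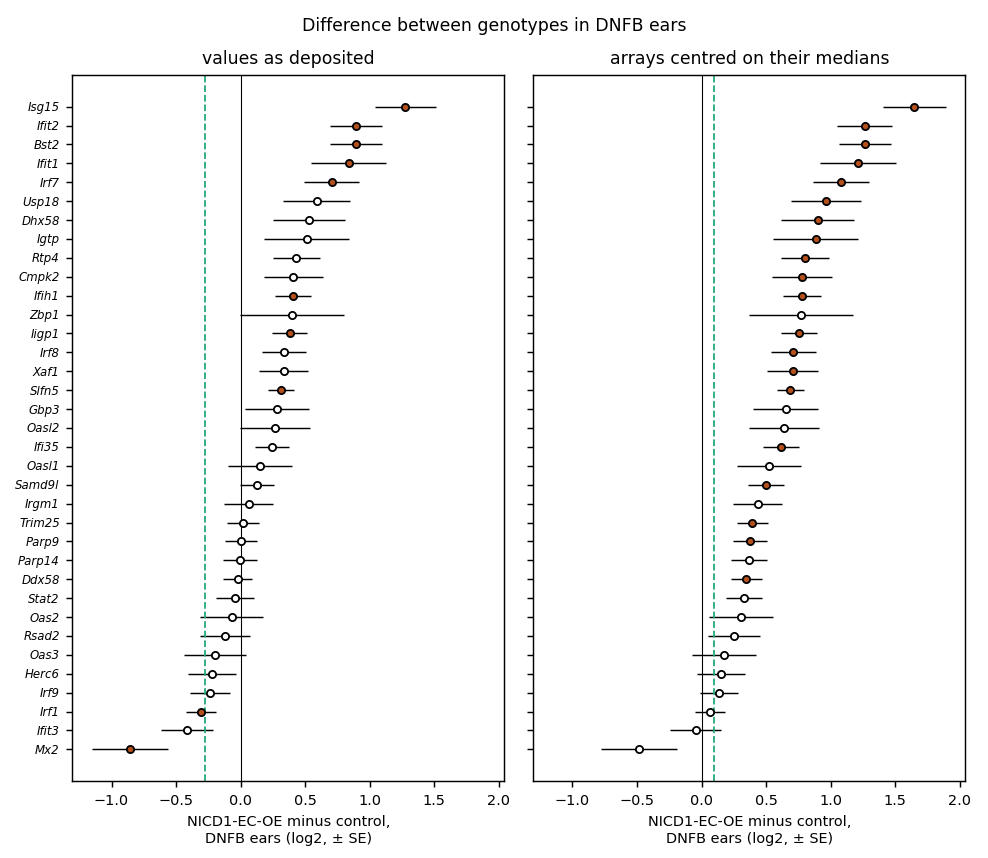
Difference between NICD1-EC-OE and control mice in DNFB ears for 35 interferon-stimulated genes (log2, with bars for ± 1 SE), with values as deposited on the left and with arrays centred on their medians on the right. Filled points passed an adjusted p under 0.05, and the dashed line is the median of all probe sets tested (-0.27 on the left and 0.099 on the right); Isg15 is highest and Mx2 lowest in both panels.

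Of the 10 calls as deposited in DNFB ears, those on Isg15, Bst2, Ifit2 and Irf7 stood in each of 10 fits that left out 1 array. The number of higher members was 5 without control DNFB replicate 3, 4 without NICD1-EC-OE DNFB replicate 3 and 12 without control DNFB replicate 6. For fits of this comparison with an array left out, the share of all probe sets is not given. Without control DNFB replicate 2 or NICD1-EC-OE DNFB replicate 3 none was lower, and without control DNFB replicate 4, 5 or 6 or NICD1-EC-OE DNFB replicate 1 there was 1. Slfn5 lost its call without NICD1-EC-OE DNFB replicate 2 or 3 (adjusted p 0.0514 and 0.0571). Ifit1 lost its call in 3 fits, Ifih1 in 4, Iigp1 in 5, Mx2 in 2 and Irf1 in 6, with adjusted p up to 0.097, 0.0652, 0.0963, 0.151 and 0.149.

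In vehicle ears few members passed in either direction, and the share that was lower lay under that of all probe sets. As deposited 1 was higher (2.86%; 2.88% of all probe sets) and 4 lower (11.4%; 33% of all), with a median of -0.17 against -0.28. Centring gave 5 higher (14.3%; 11.9% of all) and 0 lower (6.54% of all); those 5 were Ifih1, Ifit1, Bst2, Isg15 and Rtp4, with centred differences of 0.57, 0.93, 0.83, 1.04 and 0.68. Quantile values gave 1 higher and 1 lower (6.85% and 9.35% of all), and cyclic loess 1 and 1 (7.89% and 7.73% of all). As deposited, NICD1-EC-OE arrays lay wholly above control arrays in 1 member (1.83% of all) and wholly below in 3 (22.2% of all). Isg15 was 7.75, 8.18 and 8.55 in control vehicle arrays and 8.65, 9.07, 9.07 and 8.71 in NICD1-EC-OE vehicle arrays, with no overlap. It was higher by 0.72 ± 0.24 (adjusted p 0.0237) and passed under all 4 scalings, as no other member did.

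Irf1 was 9.04, 9.13 and 9.21 against 8.17, 8.50, 8.65 and 8.67, lower by 0.63 on the log2 scale in the values as deposited (-0.63 ± 0.12, adjusted p 0.000495) and short of the threshold after centring (-0.30, adjusted p 0.0773). Slfn5 (-0.38 ± 0.10, adjusted p 0.00624), Herc6 (-0.52 ± 0.19, adjusted p 0.0358) and Ddx58 (-0.31 ± 0.11, adjusted p 0.0364) were lower as deposited and differed by -0.05, -0.19 and 0.020 after centring. The calls on Irf1 and Slfn5 stood with any 1 array left out. Isg15 lost its call without control vehicle replicate 3 or NICD1-EC-OE vehicle replicate 2 or 3 (adjusted p 0.0506, 0.0696 and 0.0691), Ddx58 in 5 fits and Herc6 in 6 (adjusted p up to 0.1 and 0.119). Without NICD1-EC-OE vehicle replicate 4 there were 3 higher (8.57%, against 2.27% of all probe sets) and 2 lower (5.71%, against 28% of all). For the other fits with an array left out, the share of all probe sets is not given. Without control vehicle replicate 3 there were 0 higher and 8 lower. The number lower was 2 without control vehicle replicate 4 or 6 or NICD1-EC-OE vehicle replicate 1, and the number higher was 2 without control vehicle replicate 1 or 6.

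The spread of these genes between arrays differed by group. For control vehicle arrays the median SD over members was 0.30 (0.24 over all probe sets), and for control DNFB arrays it was 0.36 (0.26). In NICD1-EC-OE mice it was 0.25 (0.22) for vehicle and 0.13 (0.21) for DNFB arrays. The members moved together between arrays: control vehicle replicate 3 was the lowest of its group in 26 of 35 members and control DNFB replicate 3 in 29, while control vehicle replicate 6 was the highest in 19 and control DNFB replicate 6 in 21. Among the NICD1-EC-OE vehicle arrays replicate 4 was lowest in 21. The mean of the 35 members minus the array median ran from 3.33 to 4.03 in control vehicle and 3.34 to 4.32 in control DNFB arrays. In NICD1-EC-OE mice it ran from 3.72 to 4.14 in vehicle and 4.38 to 4.53 in DNFB arrays. On this scale the NICD1-EC-OE DNFB arrays lay above all others. As deposited the mean was 7.21 to 7.92 in control vehicle and 7.29 to 8.20 in control DNFB arrays. It was 7.32 to 7.76 in NICD1-EC-OE vehicle and 7.95 to 8.08 in NICD1-EC-OE DNFB arrays, which lay within the range of control DNFB arrays. With both control arrays numbered 3 left out, 10 members rose and 5 fell with DNFB in control mice, and in NICD1-EC-OE mice 20 rose and 4 fell through the shared estimate of spread. No share of all probe sets is given for this fit.

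**Figure D4:**
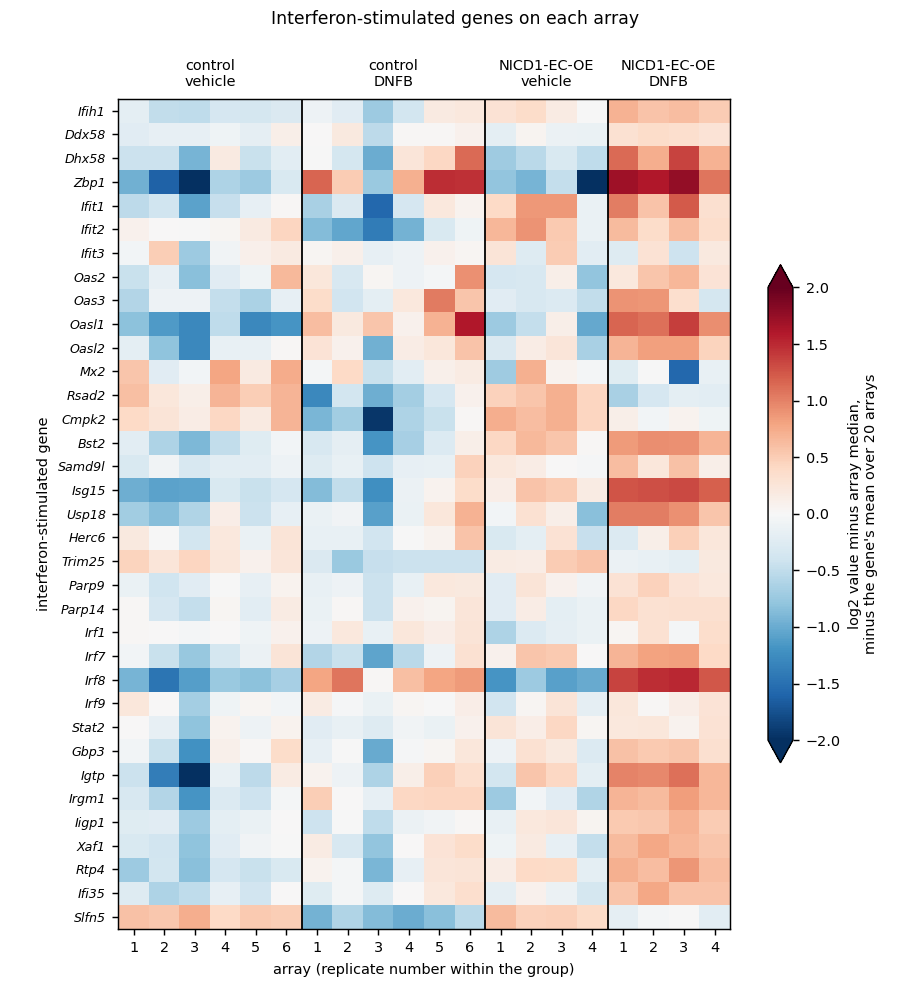
Each interferon-stimulated gene (rows) on each of 20 arrays (columns, grouped and numbered by replicate), coloured by its log2 value minus the array median and minus its own mean over the arrays. The columns numbered 3 in the control groups are the bluest, the NICD1-EC-OE DNFB columns are red for most genes, and Slfn5, Rsad2, Cmpk2 and Trim25 run the other way from vehicle to DNFB.

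**Figure D5:**
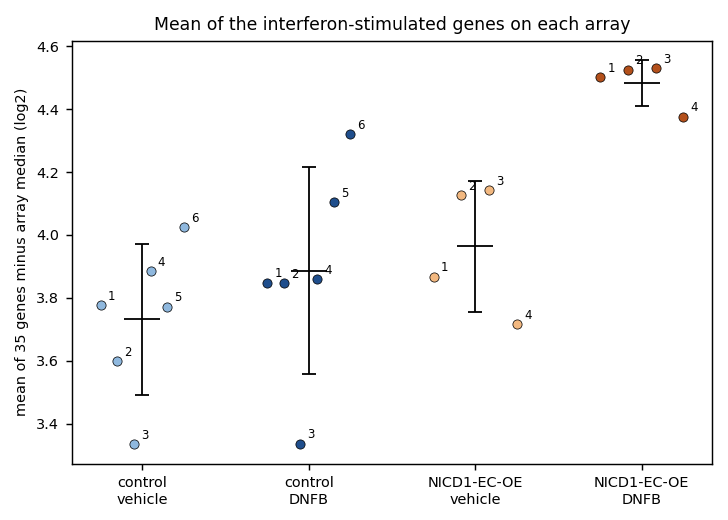
Mean of the 35 genes minus the array median (log2) on each array, numbered by replicate, with bars for the group mean and SD. The 4 NICD1-EC-OE DNFB arrays lie between 4.38 and 4.53, and the control DNFB arrays spread from 3.34 to 4.32. As deposited, with no median subtracted, these groups overlap (7.95 to 8.08 and 7.29 to 8.20).

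By inducer, 6 tested members are mainly known as interferon-gamma-induced (Irf1, Irf8, Gbp3, Igtp, Irgm1 and Iigp1) and the other 29 as type I-induced, though many answer to both. Of the 6, 3 rose in control mice (50%, against 23.7% of all probe sets) and 4 in NICD1-EC-OE mice (66.7%, against 20%). None fell (23.6% and 18.1% of all fell), and the median differences were 0.42 and 0.61. Of the 29, 5 rose and 5 fell in control mice (17.2% each, both under the 23.7% and 23.6% of all probe sets; median 0.089). In NICD1-EC-OE mice 12 of the 29 rose (41.4%; 20% of all) and 4 fell (13.8%; 18.1% of all), with a median of 0.35. Without NICD1-EC-OE vehicle replicate 4, 3 of the 6 rose (50%), and 7 of the 29 rose (24.1%) and 3 fell (10.3%). In that fit 17.9% of all probe sets rose and 16.1% fell. The difference between these classes was not tested.

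In the lists that follow, the shares of all probe sets that rose and fell, for reading each count, are again 23.7% and 23.6% in control mice and 20% and 18.1% in NICD1-EC-OE mice.

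Upstream, Ifnb1 and Ifng were dim, while some other interferon genes were not. Ifnb1 averaged 2.42 to 2.64 and Ifng 3.09 to 3.43 over the groups and both were under the filter. Ifna1, Ifna4 and Ifnl2 exceeded the array median on every array. Ifnl3 did so on all 10 vehicle, 6 of 6 control DNFB and 3 of 4 NICD1-EC-OE DNFB arrays. Of 7 ligand genes tested, 2 rose in control mice and 0 in NICD1-EC-OE mice, where in limma 0 had an unadjusted p under 0.05. Ifnk, the interferon of keratinocytes, rose by 1.18 ± 0.39 in control mice (adjusted p 0.0174); it exceeded the array median on 0 of 10 vehicle and 4 of 6 control DNFB arrays, so it was testable only through the group where it was high. In the same mice Ifna4 rose by 0.40 ± 0.16 (adjusted p 0.044). Of 10 keratinocyte markers 4 rose and 2 fell in control mice, and their mean was 5.91 to 7.07 in control vehicle and 7.13 to 8.94 in control DNFB arrays. Of these 10 markers, 1 was testable only through DNFB arrays. The part of keratinocytes in this result was not tested.

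Of 8 receptors and kinases tested, 1 rose and 5 fell in control mice (12.5% and 62.5%), and 1 rose and 4 fell in NICD1-EC-OE mice (12.5% and 50%). The type I receptor chain Ifnar1 fell by 0.87 ± 0.13 in control and by 1.00 ± 0.16 in NICD1-EC-OE mice (adjusted p 1.41e-05 and 4.44e-05). Ifnar2 fell by 0.23 ± 0.09 in control mice (adjusted p 0.0345) and differed by -0.17 ± 0.10 in NICD1-EC-OE mice (adjusted p 0.225). The gamma receptor chain Ifngr1 fell by 0.64 ± 0.10 and by 0.47 ± 0.13 (adjusted p 3.91e-05 and 0.00649), while Ifngr2 did not pass in either (-0.11 and 0.12). Il10rb, a chain of the type III receptor, fell by 1.03 ± 0.11 and by 1.25 ± 0.13, and Tyk2 fell by 1.24 ± 0.16 and by 1.22 ± 0.20. Jak2, which serves the gamma receptor, rose by 0.54 ± 0.09 and by 0.54 ± 0.11.

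Of 8 inhibitors of the pathway, 6 rose and 2 fell in each genotype (75% and 25%). Socs1, itself an interferon-induced gene that blocks the kinases, rose by 0.82 ± 0.12 in control and by 1.31 ± 0.14 in NICD1-EC-OE mice (adjusted p 7.1e-06 and 4.54e-07). The phosphatase Ptpn2 rose by 1.55 ± 0.15 and by 1.15 ± 0.19, and the corepressor Irf2bp2 fell by 1.21 ± 0.10 and by 1.01 ± 0.13. Of 3 other STAT and IRF factors tested, Stat3 rose in control mice (0.38 ± 0.09, adjusted p 0.00118) and none passed in NICD1-EC-OE mice.

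Of 9 innate receptors, adaptors and kinases upstream of interferon, 3 rose and 2 fell in control mice and 4 rose and 1 fell in NICD1-EC-OE mice. The DNA-pathway adaptor Sting1 rose by 0.35 ± 0.12 in control and by 1.27 ± 0.14 in NICD1-EC-OE mice (adjusted p 0.0186 and 8.05e-07); the effects differed by 0.92 ± 0.19 (adjusted p 0.0839). Mavs, the adaptor of RIG-I and MDA5, fell by 1.21 ± 0.15 and by 0.63 ± 0.19 (adjusted p 1.55e-06 and 0.0115). The endosomal RNA receptor Tlr3 fell by 0.34 ± 0.11 in control mice and differed by 0.26 ± 0.13 in NICD1-EC-OE mice, and in DNFB ears it was 0.89 ± 0.12 higher in NICD1-EC-OE mice (adjusted p 2.68e-05; 1.26 after centring).

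Beyond the 40, 49 other interferon-induced genes were tested, of which 2 were testable only through DNFB arrays. In control mice 13 rose and 7 fell (26.5% and 14.3%), the rises close to the background. In limma 19 rose and 0 fell in NICD1-EC-OE mice (38.8% rose). Without NICD1-EC-OE vehicle replicate 4, 16 rose and 0 fell (32.7% rose, against 17.9% of all probe sets). Cxcl9 and Cxcl10, chemokines that draw in Cxcr3-bearing T cells, rose by 3.66 ± 0.44 and 2.36 ± 0.21 in control and by 4.47 ± 0.54 and 3.77 ± 0.26 in NICD1-EC-OE mice. The DNA-binding p200 family genes Ifi205 and Ifi204 rose by 2.71 ± 0.23 and 1.94 ± 0.26 in control and by 3.14 ± 0.28 and 2.83 ± 0.32 in NICD1-EC-OE mice.

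Markers of other cells moved with the challenge as well. In sorted bulk samples, fewer cells of a type and less RNA per cell cannot be told apart. All 6 pan-leukocyte markers rose in control mice and 5 of 6 in NICD1-EC-OE mice (4 of 6 without NICD1-EC-OE vehicle replicate 4). Of the 6, 2 were testable only through DNFB arrays, Ptprc and Cd53, so the count of these that rose says little. Mean levels in control and NICD1-EC-OE mice were 3.74 to 4.26 and 3.62 to 3.74 in vehicle arrays. They were 4.56 to 5.67 and 4.55 to 5.22 in DNFB arrays. Ptprc (CD45) averaged 3.79 and 3.30 in control and NICD1-EC-OE vehicle arrays, near the array medians, and rose by 1.21 ± 0.26 and by 1.56 ± 0.32. Of 12 macrophage and monocyte markers tested, 6 rose and 1 fell in control mice and 5 rose in NICD1-EC-OE mice. Of these 12, 3 were testable only through DNFB arrays. Itgam rose by 2.25 ± 0.21 and by 1.80 ± 0.25, whereas Csf1r did not pass (0.05 and 0.76) and Adgre1 was under the filter (2.75 to 3.30). Of 12 neutrophil markers listed 7 were tested, and 6 of those were testable only through DNFB arrays, so the count that rose says little. The mean of these 7 was 3.18 to 3.60 in vehicle and 5.10 to 6.36 in DNFB arrays. This mean has the same limit, since listed markers under the filter were left out of it. All 4 platelet markers tested rose in control mice and 3 in NICD1-EC-OE mice, with median differences of 2.02 and 1.53. Without NICD1-EC-OE vehicle replicate 4, 2 of the 4 rose in NICD1-EC-OE mice. Of 8 pericyte and smooth muscle markers 6 fell in control and 4 in NICD1-EC-OE mice. Of 14 endothelial markers 11 fell in control mice, while 7 fell and 2 rose in NICD1-EC-OE mice. Without NICD1-EC-OE vehicle replicate 4, 6 endothelial markers fell and 2 rose there. Of 6 dendritic cell markers none rose in either genotype and of 6 T and NK cell markers 1 rose in each. In each of these lists 2 of the 6 were testable only through DNFB arrays. Irf8 and Zbp1 are also expressed by leukocytes, and the part of these cells, of platelets and of the fall in endothelial markers in the members' differences was not tested.

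Between genotypes in DNFB ears 0 of 6 pan-leukocyte markers were higher or lower in limma under each of the 4 scalings. As deposited 5.45% of all probe sets were higher and 35.1% lower, and 0 of the 6 markers had an unadjusted limma p under 0.05. Their median difference was -0.25 as deposited (-0.27 over all probe sets; 0.27 for the members), 0.12 after centring (0.099; 0.64), 0.15 with quantile values (-0.0047; 0.36) and 0.19 with cyclic loess (0.0074; 0.35). The part of leukocytes in this comparison was not tested. Of 14 endothelial markers 4 were higher as deposited (5.45% of all probe sets) and 11 after centring (20.7% of all). Quantile values gave 5 higher and cyclic loess 4 (11.9% and 12.4% of all), and 0 were lower under each scaling. Of 4 platelet markers 3 were lower as deposited (75%, median -1.06) and 1 under each other scaling. Of 7 fibroblast markers 3 were lower as deposited (42.9%, median -0.64), 1 after centring and 2 with quantile or cyclic loess values. After centring, quantile and cyclic loess, 8.12%, 11.9% and 11.4% of all were lower. In these 2 lists 0 were higher, and the part of these cells was not tested.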

How the data were processed

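Gene expression was measured on Affymetrix arrays from 1 ng of RNA per sample, amplified before labelling per the labels. The authors deposited log2 values of 41345 probe sets on 20 arrays; the submitters' processing notes name RMA and Affymetrix Expression Console, and their versions and options are not given in the sources used here. Of these probe sets, 23521 carried 1 gene symbol, 1814 several and 16010 none in the platform annotation. Those with 1 symbol and 4 or more arrays on which they exceeded that array's median were kept (14886 probe sets). Depth does not apply to arrays; their number limits the precision.

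A limma 3.58.1 model (R 4.3.3) with 4 group means was fitted to all 20 arrays, and p-values were adjusted by Benjamini-Hochberg over the 14886 probe sets, with a threshold of 0.05. It was tested on simulated data beforehand. Named are all listed genes, main genes of the pathway, and from each pathway list up to 4 genes past the threshold with the largest differences; Notch1 and cell type markers are given beside results. The listed genes and the other lists were chosen with earlier results of these data known. Same-numbered arrays were not treated as pairs. Alternatives were array centring, quantile and cyclic loess normalization, filters, variance models, array weights, replicate blocks, a 2-fold limit and leaving out arrays. Figures used matplotlib 3.10.9 (Python 3.11.15).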

Additional observations from a re-analysis of the deposited data

Results flagged for a closer look

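Single arrays stood apart from the rest of their group in 10 of 144 group values of the listed genes, by the gap to the nearest array over the whole range of the group; chance gives about 1 in 20. Control DNFB replicate 3 was low for Ddx58 (7.29), Oasl2 (7.82), Gbp3 (7.61) and Rtp4 (7.56). Control vehicle replicate 3 was low for Irf9 (7.63), Stat2 (8.47) and Iigp1 (10.4). Mx2 was low in NICD1-EC-OE DNFB replicate 3 (3.32), Samd9l was high in control DNFB replicate 6 (7.20), and Trim25 was high in NICD1-EC-OE DNFB replicate 4 (8.17).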

How the results depend on the processing

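Counts below are of the 35 listed genes. Where no share of all probe sets is stated above for a setting, none is given here. Such counts show how the number moved, not whether it stood above the background. In control mice, 8 rose with DNFB; 5 did with quantile values, with cyclic loess, or with only the groups compared in the fit, and 3 with a 2-fold limit as well, while leaving out an array gave 4 to 14. Of the 5 that fell, 3 were past 2-fold. In NICD1-EC-OE mice, 16 rose and 4 fell; a 2-fold limit gave 5 and 0, and leaving out an array 10 to 15 that rose. In DNFB ears, 8 were higher in NICD1-EC-OE mice and 2 lower. Centring gave 20 and 0, a 2-fold limit 1 and 0, leaving out an array 4 to 12 and 0 to 2, quantile and loess values 0 lower, and no filter 1 lower. In vehicle ears, 1 was higher and 4 lower. Centring gave 5 and 0, a 2-fold limit 0 and 0, and leaving out an array 0 to 3 and 2 to 8. Quantile and loess values gave 1 lower, no filter 2 higher, and leaving out both control arrays numbered 3, chosen after seeing the data, 8 lower. Centring turned Ddx58 to 0.35 and Irf1 to 0.067 in DNFB ears, and Ddx58 to 0.020 in vehicle ears, as the construction of the scaling lifts all NICD1-EC-OE values against control. The difference of DNFB effects passed for 0 genes, and for 1, Slfn5, with trended and robust variances, array weights or a random replicate block; leaving out an array gave 0 to 1. The cause of the other changes was not tested.

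The labels do not say that replicate numbers pair the arrays. Deviations of same-numbered arrays correlated at 0.0418 to 0.269, and 6 of 10 vehicle arrays correlated best with their own number, a hint of pairing from the data and not from the design. With number as a fixed replicate block, 12 rose and 5 fell in control mice, 21 rose and 4 fell in NICD1-EC-OE mice, and 0 passed for the difference of effects. This block could not be fitted between genotypes. As a random replicate block, 8 rose in control mice, 17 rose in NICD1-EC-OE mice, 8 were higher in DNFB ears and 2 in vehicle ears. The share of all probe sets is not given for the blocked fits, so their counts are not set against a background. Amplified RNA and 4 to 6 arrays a group limit what could be detected.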
